A study of Mus musculus with 6 samples.

Results

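The aminoacyl-tRNA synthetases and the proteins annotated with their activity were followed in BV2, a mouse microglial cell line that is immortalised. Members were all protein-coding genes whose deposited molecular-function annotation names a tRNA ligase activity for some amino acid. This held for 44 of 15058 protein-coding genes, among 25032 annotated genes and 55359 genes in the count table. By the ending of the gene name, 19 members ending in 2 were set apart as mitochondrial and the other 25 were taken as cytosolic. The label fitted most but not all of them. By textbook function 38 members are synthetase genes, 21 cytosolic and 17 mitochondrial, and 6 are not: Aarsd1, Dalrd3, Fdxacb1, Polg2, Gm27029 and 1110032A03Rik. The name ending also put Tarsl2, a cytosolic threonine enzyme, and Polg2, a subunit of the mitochondrial DNA polymerase, among the mitochondrial genes. Of the 44 members, 43 passed the filter on low counts, and Gm27029, with at most 2 reads in any library, did not.

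The study compared 3 libraries from BV2 cells overexpressing TDP43-NLS, which the design text describes as TDP-43 mutated in its nuclear localisation signal, with 3 libraries from BV2 cells overexpressing GFP. TDP-43 binds RNA and in healthy cells resides mainly in the nucleus. The series' title places the comparison in microglial necroptosis and neuroinflammation. All cells were kept in the same serum-containing medium, and poly(A) RNA was sequenced. Neither the promoter driving the constructs nor whether the lines were clonal is given in the sources used here, and the cells keep their own Tardbp gene. The libraries are numbered 1 to 3 within each group and nothing says that they came from separate cultures, so p-values measure only how far these samples scatter, and that scatter may be technical.

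Each aminoacyl-tRNA synthetase joins an amino acid to its matching tRNAs, the step that fixes the genetic code in protein synthesis. Nuclear genes encode separate sets of enzymes for the cytosol and for the mitochondrion, while Gars and Kars serve both compartments. Several cytosolic enzymes are held in a multisynthetase complex with 3 scaffold proteins. Uncharged tRNA activates the kinase GCN2, which leads to translation of ATF4, a transcription factor known to raise genes of amino acid import, amino acid synthesis and many cytosolic synthetases.

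Library totals ran from 15062131 to 18005592 reads in the TDP43-NLS group and from 15361351 to 17367688 in the GFP group, and mitochondrially encoded genes took 1.42% to 1.65% and 1.49% to 1.62% of the reads. GFP replicate 2 stood apart from the other GFP libraries, with a chi-square over its degrees of freedom of 7.24 and 7.27 against them, where the value was 1.20 between GFP replicates 1 and 3 and 1.87 to 2.73 between TDP43-NLS libraries. Tardbp, the mouse gene for TDP-43, had 382, 365 and 382 CPM (reads scaled to a common library total with TMM factors) in the libraries labelled TDP43-NLS, against 465, 423 and 464 CPM in the GFP libraries. It was thus lower in the group named for it (log2 fold change -0.26, edgeR adjusted p = 0.000291). Whether any reads of the construct are counted in Tardbp cannot be told from the sources used here, so every direction below rests on the labels. All 14 microglia and macrophage markers were read, summing to 2429 to 2471 CPM in the TDP43-NLS group and 2594 to 2691 CPM in the GFP group, with P2ry12 at 0.261 and 1.27 CPM and C1qa at 0.8 and 1.23 CPM, both near 0. Markers of other brain cells and fibroblasts were low or at 0. The 4 oligodendrocyte markers summed to 3.48 to 5.32 CPM in the TDP43-NLS group and 3.02 to 5.32 CPM in the GFP group, mostly Mbp. The 5 neuronal markers summed to 1.21 to 1.29 CPM in the TDP43-NLS group and 0.236 to 0.569 CPM in the GFP group, mostly Tubb3, and Rbfox3, Snap25, Syt1, Aqp4, Mog and Dcn had no read. The part of these markers in the results was not tested. In a bulk culture, a change in the share of some cells and a change in RNA per cell cannot be told apart.

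The genes for the cytosolic enzymes were mostly higher in the TDP43-NLS libraries and those for the mitochondrial enzymes were split in direction. Genes were called at an adjusted p under 0.05 in edgeR's quasi-likelihood test over all 13199 tested genes. This called 57.5% of all tested genes, 29.3% higher and 28.2% lower in the TDP43-NLS libraries. Of the 24 tested members whose name does not end in 2, 11 rose and 3 fell, with a median log2 fold change of 0.16, and of the 19 whose name ends in 2, 4 rose and 7 fell, with a median of 0.05. The 3 that fell in the first set came to 1 without TDP43-NLS replicate 1 and to 2 without TDP43-NLS replicate 2 or GFP replicate 3. Over all 43 tested members 15 rose and 10 fell, and the 58.1% called is near the share over all tested genes. Sorted by textbook function, an alternative chosen after seeing the data, 12 of 21 cytosolic synthetase genes rose (57.1%) and 2 fell (9.52%), while 3 of 17 mitochondrial ones rose (17.6%) and 6 fell (35.3%). The median log2 fold change was 0.21 over the cytosolic and 0.05 over the mitochondrial synthetase genes, against 0.00 over all tested genes. Counted by groups that do not overlap, 14 cytosolic genes lay above and 5 below, and 3 mitochondrial genes lay above and 6 below, where 32.0% of all tested genes lay above and 31.2% below. Without GFP replicate 2 the median of the genes whose name ends in 2 was -0.03, against 0.05 with all libraries. These counts describe the members and are no test of them as a set.

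**Figure D1:**
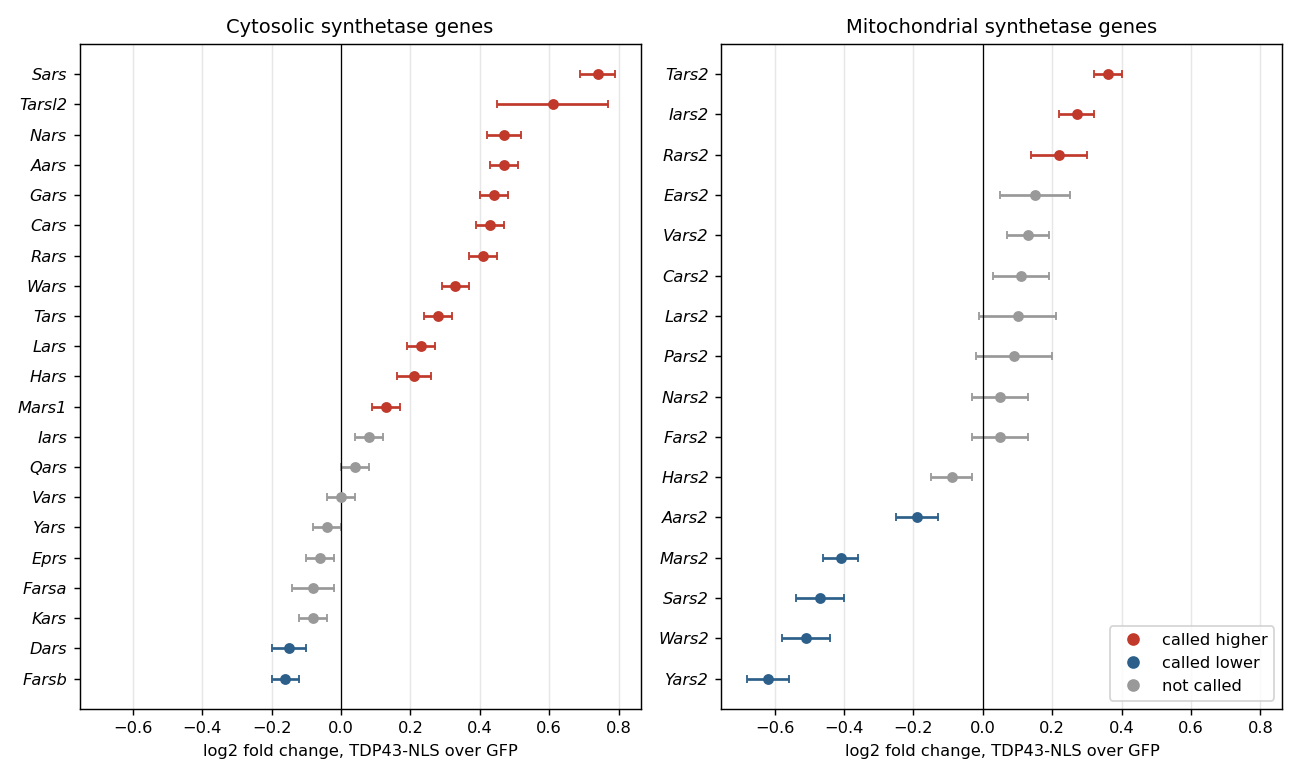
Log2 fold change of each synthetase gene, TDP43-NLS over GFP, as a point with its standard error, sorted by size, with the 21 cytosolic genes on the left and 16 of the 17 mitochondrial genes on the right. The cytosolic values run from -0.16 (Farsb) to 0.74 (Sars) with 12 called higher, and the mitochondrial values run from -0.62 (Yars2) to 0.36 (Tars2) with 5 of those shown called lower.

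Sars, which charges serine tRNAs and also the selenocysteine tRNA, changed most among the cytosolic enzymes. It had 435, 459 and 442 CPM in the TDP43-NLS libraries, against 275, 248 and 275 CPM in the GFP libraries. Every TDP43-NLS library was far above every GFP library. Sars (ENSMUSG00000068739, chromosome 3, 108332181 to 108352525, minus strand, GRCm39) rose by 0.74 on the log2 scale (standard error 0.05, edgeR adjusted p = 2.54e-08). It was the only member called in a test for changes beyond 0.5 on the log2 scale (adjusted p = 0.000214), a threshold passed by 14.9% of all tested genes and, in the higher direction, by 9.25%. The 671 other tested genes of chromosome 3 had a median log2 fold change of 0.01.

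Aars, the alanine enzyme (ENSMUSG00000031960, chromosome 8, 111759776 to 111784296, plus strand), had 529.8, 534 and 525 CPM in the TDP43-NLS libraries, against 387, 376 and 387 CPM in the GFP libraries. Gars, the glycine enzyme of both cytosol and mitochondrion (ENSMUSG00000029777, chromosome 6, 55014992 to 55056485, plus strand), had 429, 421 and 422 CPM in the TDP43-NLS libraries, against 305, 311 and 319.7 CPM in the GFP libraries. Nars, the asparagine enzyme (ENSMUSG00000024587, chromosome 18), had 659.8, 719.7 and 702 CPM in the TDP43-NLS libraries, against 517, 466 and 519 CPM in the GFP libraries. In all 3 genes the groups were apart, and the GFP library furthest down for Aars and Nars was replicate 2. The log2 fold changes were 0.47 for Aars, 0.44 for Gars and 0.47 for Nars, with standard errors of 0.04, 0.04 and 0.05 and edgeR adjusted p of 2.28e-07, 5.37e-07 and 3.5e-06.

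Cars, the cysteine enzyme (ENSMUSG00000010755, chromosome 7), stood at 129.7, 129.8 and 128 CPM in the TDP43-NLS libraries, against 96, 99.1 and 91.6 CPM in the GFP libraries. Wars, the tryptophan enzyme (ENSMUSG00000021266, chromosome 12), had 300.2, 306 and 302 CPM in the TDP43-NLS libraries, against 240.2, 248 and 236 CPM in the GFP libraries. Tars, the threonine enzyme (ENSMUSG00000022241, chromosome 15), had 334, 331 and 325 CPM in the TDP43-NLS libraries, against 275, 276 and 267 CPM in the GFP libraries. The TDP43-NLS libraries of each gene lay within a narrow band above all GFP libraries. Cars rose by 0.43, Wars by 0.33 and Tars by 0.28 on the log2 scale (standard error 0.04 each, edgeR adjusted p = 2.23e-06, 1.03e-05 and 3.88e-05). The 477 other tested genes of chromosome 12, where Wars lies, had a median of 0.17, the highest of any autosome.

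Rars, the arginine enzyme, was the cytosolic gene of the complex that changed most. It had 549.5, 569.9 and 564 CPM in the TDP43-NLS libraries, against 417, 413 and 433 CPM in the GFP libraries, with no overlap. Rars (ENSMUSG00000018848, chromosome 11, 35699208 to 35725333, minus strand) rose by 0.41 (standard error 0.04, edgeR adjusted p = 1.07e-06). It was also the most abundant synthetase mRNA per length, at 172 ± 3.55 FPKM in the TDP43-NLS group and 132 ± 3.09 FPKM in the GFP group (SD, n = 3 each), FPKM being the authors' values scaled by gene length and depth. Every one of these 8 calls held without any one library, the largest adjusted p then being 0.000575, for Tars.

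The other calls among cytosolic enzymes were smaller or rested on few reads. Lars, the leucine enzyme, and Hars, the histidine enzyme, rose by log2 fold changes of 0.23 and 0.21 (edgeR adjusted p = 0.00032 and 0.00165). Tarsl2, a second cytosolic threonine enzyme, had 4.58, 5.89 and 6.04 CPM in the TDP43-NLS libraries, against 3.02, 3.66 and 4.16 CPM in the GFP libraries, a log2 fold change of 0.61 (standard error 0.16, edgeR adjusted p = 0.0045). It has the fewest reads of the 38 synthetase genes, 460 over all libraries, and the lowest FPKM of the cytosolic ones. Mars1, the methionine enzyme, rose by 0.13 (edgeR adjusted p = 0.0265), and its call was lost without TDP43-NLS replicate 1 or 2 or GFP replicate 3, at adjusted p of 0.0623, 0.0968 and 0.0775.

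Among cytosolic enzymes 2 genes fell. Farsb, the beta subunit of the phenylalanine enzyme, had 217, 214 and 213 CPM in the TDP43-NLS libraries, against 241, 247 and 234 CPM in the GFP libraries, a log2 fold change of -0.16 (standard error 0.04, edgeR adjusted p = 0.00308). Dars, the aspartate enzyme of the complex, had 138, 144 and 153 CPM in the TDP43-NLS libraries, against 159.8, 163 and 160.1 CPM in the GFP libraries, a log2 fold change of -0.15 (standard error 0.05, edgeR adjusted p = 0.0117). The groups were apart in both genes. Dars lost its call without TDP43-NLS replicate 1 or 2, at adjusted p of 0.063 and 0.0528.

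Not called were 7 cytosolic genes. Kars, the lysine enzyme, averaged 359 ± 6.85 CPM in the TDP43-NLS group and 379 ± 5.1 CPM in the GFP group, and its log2 fold change was -0.08 (edgeR adjusted p = 0.0894). The values were 0.08 (adjusted p = 0.1) for Iars, the isoleucine enzyme, and -0.06 (adjusted p = 0.19) for Eprs, which joins the glutamate and proline enzymes in a single chain. Yars, the tyrosine enzyme, had -0.04 (adjusted p = 0.354), Qars, the glutamine enzyme, 0.04 (adjusted p = 0.37), and Vars, the valine enzyme, -0.00 (adjusted p = 0.936). Farsa, the alpha subunit of the phenylalanine enzyme, had 160.1, 166 and 160.3 CPM in the TDP43-NLS libraries, against 181, 155 and 179 CPM in the GFP libraries. GFP replicate 2 was the low library there, and without it Farsa was called lower (log2 fold change -0.15, adjusted p = 0.000692) where the value over all libraries was -0.08 (adjusted p = 0.223). Iars was likewise called higher without GFP replicate 2 (adjusted p = 0.0331). The 707 other tested genes of chromosome 9, which holds Qars, had a median log2 fold change of -0.31.

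Of 13 genes for cytosolic enzymes outside the multisynthetase complex 9 rose (69.2%) and 1 fell, with a median log2 fold change of 0.33. Of 8 genes for enzymes of the complex 3 rose (37.5%) and 1 fell, with a median of 0.06, where 29.3% of all tested genes rose. By the fold of the catalytic domain, 5 of 9 class I genes rose and the other 4 were not called, and 7 of 11 class II genes rose and 2 fell, Eprs being of both classes. The share called in either direction was 55.6% in class I and 81.8% in class II, against 57.5% of all tested genes. The difference between these groups was not tested. Summed over the 21 cytosolic synthetase genes, the level was 6712, 6827 and 6720 CPM in the TDP43-NLS libraries and 5878, 5758 and 5852 CPM in the GFP libraries. Summed over the 17 mitochondrial genes it was 738, 739 and 763 CPM in the TDP43-NLS libraries and 739.8, 739 and 757 CPM in the GFP libraries. The groups were apart in the cytosolic sum and overlapped in the mitochondrial sum, and no test was made on sums.

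**Figure D2:**
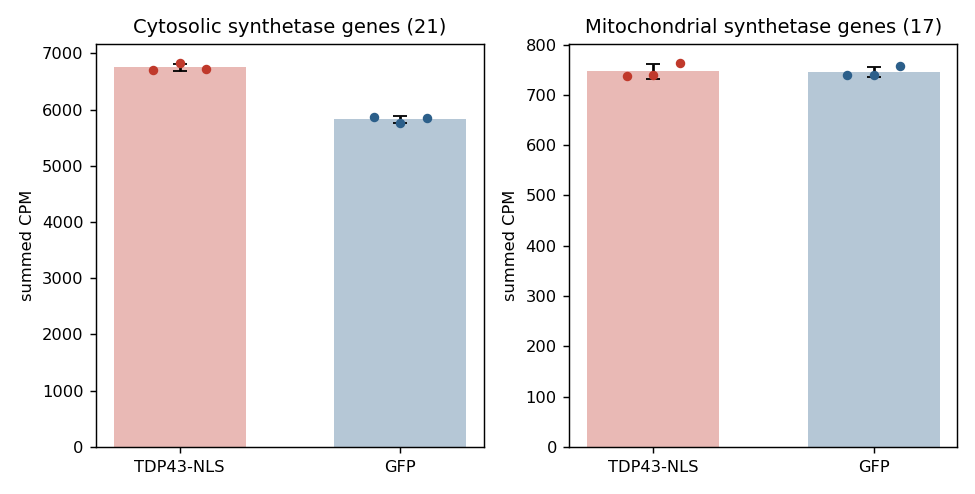
Summed CPM of the 21 cytosolic (left) and 17 mitochondrial (right) synthetase genes, with a bar for the mean of 3 libraries, a line for its SD and a point for each library. The cytosolic sums are 6753 ± 64.2 CPM in the TDP43-NLS group and 5829 ± 63.2 CPM in the GFP group, and the mitochondrial sums, 747 ± 14.1 and 745 ± 10.3 CPM, overlap.

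Several synthetase genes carry the letters of the C/EBP-ATF response element, the sequence bound by ATF4 with C/EBP partners, near their start. RefSeq promoter windows of 300 bases, 250 before the start and the rest after it (GRCm38.p6), were matched by symbol for 14 of the 21 cytosolic genes and 14 of the 17 mitochondrial genes. The letters TGATGNAA, sought on both strands, were in the windows of 5 of the 14 cytosolic genes and 0 of the 14 mitochondrial genes, and in 3.97% of all 32851 windows. Positions below count the first base of the gene as 0. Not every match is listed. Aars holds the letters at 9 to 16, Gars at -30 to -23, Tars at -15 to -8, Iars at 7 to 14 and Yars at 3 to 10. The stretches are shown because Aars, Gars and Tars are among the 8 cytosolic genes with the smallest adjusted p. Capitals mark the match, which is in the reverse complement except for Yars.
Aars (chr8:111033840-111033869, plus strand): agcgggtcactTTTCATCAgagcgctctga
Gars (chr6:55037960-55037989, plus strand): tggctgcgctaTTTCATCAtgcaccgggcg
Tars (chr15:11399655-11399684, minus strand): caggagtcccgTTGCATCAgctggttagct
Iars (chr13:49682126-49682155, plus strand): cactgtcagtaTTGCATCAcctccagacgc
Yars (chr4:129189895-129189924, plus strand): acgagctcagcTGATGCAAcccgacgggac

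The letters did not track the calls one for one. Aars, Gars and Tars rose, while Iars and Yars hold the letters and were not called. Sars, with the largest rise, has a window without them, and Rars, Cars, Nars, Wars, Lars, Hars and Vars had no entry. The E-box CACGTG was in 4 of the 14 cytosolic windows, of Aars, Tars, Farsb and Iars, in 1 of the 14 mitochondrial windows, of Ears2, and in 7.15% of all windows, and it overlapped none of the stretches above. Such a match describes letters in a window, not binding, and a window without them says nothing of the factor.

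Among the mitochondrial enzymes the largest change was a fall. Yars2, the tyrosine enzyme (ENSMUSG00000022792, chromosome 16, 16120829 to 16127504, plus strand), had 37.9, 36.7 and 37.5 CPM in the TDP43-NLS libraries, against 54.2, 62.1 and 55.8 CPM in the GFP libraries. No library of one group came near the other. Its log2 fold change was -0.62 (standard error 0.06, edgeR adjusted p = 1.41e-06), and against a log2 fold change of 0.5 the adjusted p was 0.0596. The 398 other tested genes of chromosome 16 had a median of -0.21.

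Wars2, the tryptophan enzyme (ENSMUSG00000004233, chromosome 3), had 16.9, 16.2 and 17.5 CPM in the TDP43-NLS libraries, against 24.6, 23.9 and 23.6 CPM in the GFP libraries. Sars2, the serine enzyme (ENSMUSG00000070699, chromosome 7), had 19.3, 18.4 and 18.8 CPM in the TDP43-NLS libraries, against 26.6, 27.4 and 24.4 CPM in the GFP libraries. Mars2, the methionine enzyme (ENSMUSG00000046994, chromosome 1), had 59.8, 56 and 59.9 CPM in the TDP43-NLS libraries, against 75.8, 76.4 and 80.5 CPM in the GFP libraries. The groups were apart in all 3 genes. Wars2 had a log2 fold change of -0.51, Sars2 of -0.47 and Mars2 of -0.41, with standard errors of 0.07, 0.07 and 0.05 and edgeR adjusted p of 2.39e-05, 5.71e-05 and 1.32e-05. Aars2, the alanine enzyme, also fell, by a log2 fold change of -0.19 (edgeR adjusted p = 0.0172), a call lost without TDP43-NLS replicate 2 or 3, at adjusted p of 0.0915 and 0.0634.

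The mitochondrial genes that rose were Tars2, Iars2 and Rars2. Tars2, the threonine enzyme (ENSMUSG00000028107, chromosome 3), had 112, 112 and 111 CPM in the TDP43-NLS libraries, against 85.5, 85.8 and 89.9 CPM in the GFP libraries, a log2 fold change of 0.36 (standard error 0.04, edgeR adjusted p = 1.06e-05), and the groups were apart. Iars2, the isoleucine enzyme, rose by 0.27 (edgeR adjusted p = 0.00064), with GFP replicate 2 the highest of the GFP libraries at 145 CPM against 128 and 128 CPM. Rars2, the arginine enzyme, rose by 0.22 (edgeR adjusted p = 0.0272), and lost its call without TDP43-NLS replicate 3, GFP replicate 1 or GFP replicate 3, at adjusted p of 0.107, 0.0591 and 0.0618.

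The other 8 mitochondrial genes were not called. The log2 fold changes were 0.13 for Vars2, 0.15 for Ears2, -0.09 for Hars2 and 0.11 for Cars2, the valine, glutamate, histidine and cysteine enzymes (edgeR adjusted p = 0.105, 0.214, 0.223 and 0.265). They were 0.09 for Pars2, 0.05 for Nars2 and 0.05 for Fars2, the proline, asparagine and phenylalanine enzymes (edgeR adjusted p = 0.499, 0.609 and 0.633). Lars2, the leucine enzyme, had 102, 116 and 129.5 CPM in the TDP43-NLS libraries, against 117, 87.8 and 121 CPM in the GFP libraries, the most scattered values among these genes. Its log2 fold change was 0.10 (standard error 0.11, edgeR adjusted p = 0.454), and -0.03 without GFP replicate 2, the low library. Fars2 likewise came to -0.03 without that library.

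**Figure D3:**
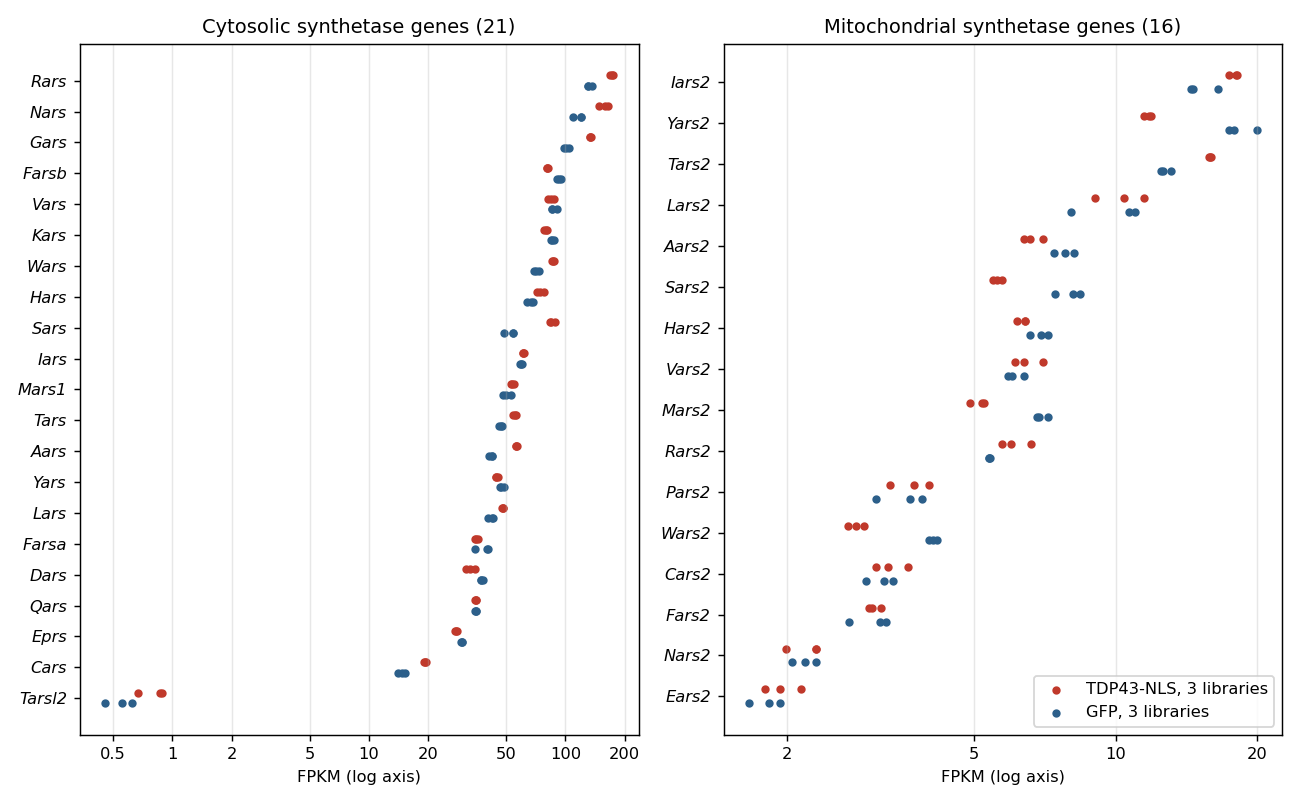
FPKM of the 21 cytosolic and 16 of the 17 mitochondrial synthetase genes in each of 3 TDP43-NLS and 3 GFP libraries, on log axes, in order of level, with cytosolic genes on the left and mitochondrial genes on the right. Rars is highest at 172 and 132 FPKM in the TDP43-NLS and GFP groups, and Tarsl2 lowest at 0.806 and 0.543 FPKM.

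Levels per gene length were far higher for the cytosolic set. The median over the genes was 56.3 FPKM in the TDP43-NLS group and 50.3 FPKM in the GFP group for the cytosolic enzymes, against 6.11 FPKM and 6.91 FPKM for the mitochondrial enzymes. Matched by amino acid, 19 pairs of a cytosolic and a mitochondrial gene could be formed, sharing some members. In 18 of them the cytosolic gene had the higher FPKM in the GFP libraries. Over all 19 pairs the ratio had a median of 7.23 and was at most 53.2, for Nars over Nars2. The exception was Tarsl2, at 0.0428 of the FPKM of Tars2.

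Enzymes for the same amino acid did not share one direction. In 3 pairs both genes rose (Rars with Rars2, and Tars and Tarsl2, each with Tars2). In 4 pairs the cytosolic gene rose and the mitochondrial gene fell, for alanine, methionine, serine and tryptophan. In the serine pair the FPKM of Sars was 15.2 times that of Sars2 in the TDP43-NLS group and 6.56 times in the GFP group. In the tryptophan pair the ratio was 31.0 in the TDP43-NLS group and 17.3 in the GFP group. The cytosolic gene rose beside an uncalled mitochondrial gene in 4 pairs, fell beside one in 1, and was itself not called in 6. Since a call rests on depth as well as size, and the mitochondrial genes have fewer reads, an uncalled gene is not shown to be level.

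**Figure D4:**
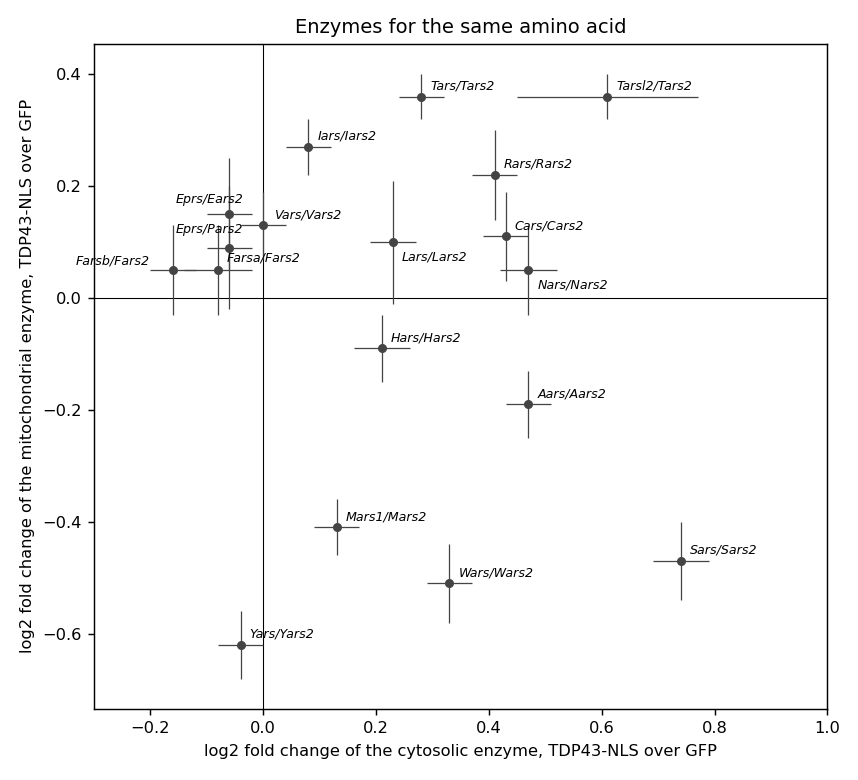
Log2 fold change (TDP43-NLS over GFP) of the cytosolic gene on the horizontal axis against that of the mitochondrial gene for the same amino acid on the vertical axis, for 18 of the 19 pairs, with standard errors as lines. Serine lies furthest to the lower right at 0.74 and -0.47, and tyrosine lowest at -0.04 and -0.62.

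Of the 5 tested members that are no synthetases 2 fell (40.0%) and 3 were not called. Over all tested genes 28.2% fell and 57.5% were called in either direction. Polg2 fell by a log2 fold change of -0.32 (edgeR adjusted p = 0.0229), though not without TDP43-NLS replicate 3 or GFP replicate 3 (adjusted p = 0.122 and 0.0633). The predicted gene 1110032A03Rik had a log2 fold change of -0.54 (edgeR adjusted p = 0.0219) on 2.65 CPM in the TDP43-NLS group and 3.87 CPM in the GFP group, and it lost the call without TDP43-NLS replicate 1 or GFP replicate 3 (adjusted p = 0.0923 and 0.0697). Dalrd3, an anticodon-binding domain protein, had a log2 fold change of 0.20 (edgeR adjusted p = 0.0625), and 0.30 (adjusted p = 0.0015) without GFP replicate 2. Fdxacb1, with a ferredoxin-fold anticodon-binding domain, had -0.36 (adjusted p = 0.156), and Aarsd1, an editing protein that clears mischarged alanine tRNA, 0.43 (adjusted p = 0.243), on under 3 CPM in every library. The genes 1110032A03Rik, Dalrd3 and Fdxacb1 lie on chromosome 9, whose 707 other tested genes had a median log2 fold change of -0.31.

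Some members overlap other genes, and since strand-specific counting is not stated, reads of these stretches cannot be assigned. Hars and Hars2 overlap by 198 bases on opposite strands. Mars1 overlaps Ddit3 by 68 bases, and Iars2 overlaps Rab3gap2 by 2034 bases, both on opposite strands. Tarsl2 shares 923 bases with Tm2d3 on its own strand, where Tm2d3 has 1228 reads over all libraries. Fdxacb1 lies wholly within 1110032A03Rik by 5113 bases on the other strand, and Aarsd1 within Gm27029 by 10777 bases on the same strand. On opposite strands, Polg2 overlaps Milr1 by 542 bases and 1110032A03Rik overlaps Alg9 by 502 bases, where Milr1 has 6591 and Alg9 3779 reads. Cars2 overlaps Naxd by 984 bases and Ears2 overlaps Ubfd1 by 89 bases, also on opposite strands, where Naxd has 3039 and Ubfd1 11271 reads. Not every overlap is listed. The values of these genes are uncertain to that extent.

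Of the 3 scaffold genes of the multisynthetase complex 2 fell (66.7%), with a median log2 fold change of -0.20. Over all tested genes 28.2% fell and 57.5% were called in either direction. Aimp2 had 31.1, 26.2 and 29.7 CPM in the TDP43-NLS libraries, against 35.1, 40.4 and 34.6 CPM in the GFP libraries, and fell by a log2 fold change of -0.35 (standard error 0.08, edgeR adjusted p = 0.0021). Eef1e1, the scaffold protein AIMP3, had 75.6, 79.5 and 79.5 CPM in the TDP43-NLS libraries, against 92.1, 84.2 and 93.6 CPM in the GFP libraries, a log2 fold change of -0.20 (edgeR adjusted p = 0.00481). Aimp1 had a log2 fold change of 0.08 (edgeR adjusted p = 0.356).

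Of 33 tested genes of the ATF4 amino acid programme, a list of amino acid importers, synthesis enzymes and stress factors known as ATF4 targets, 28 rose (84.8%) and 2 fell, where 29.3% of all tested genes rose, and the median log2 fold change was 0.45. The list was chosen with earlier results of these data known. Atf4 itself had 475, 437 and 442 CPM in the TDP43-NLS libraries, against 373, 402 and 365 CPM in the GFP libraries, a log2 fold change of 0.25 (edgeR adjusted p = 0.000684). Slc7a11, the cystine importer, rose by 1.95, Aldh1l2, a mitochondrial folate enzyme, by 1.71, Trib3, a pseudokinase, by 1.52 and Asns, asparagine synthetase, by 0.99 (edgeR adjusted p = 9.16e-13, 1.99e-10, 1.6e-10 and 1.02e-09). Ddit3, the stress factor CHOP, rose by 0.73 (edgeR adjusted p = 1.55e-05). Slc38a2, a neutral amino acid importer, and Got1, an aspartate transaminase, fell by log2 fold changes of -0.43 and -0.14 (adjusted p = 4.82e-07 and 0.00959), the call of Got1 being lost without TDP43-NLS replicate 2 (adjusted p = 0.0647). In the test for changes beyond a log2 fold change of 0.5, 14 members rose, where 9.25% of all tested genes did. The letters TGATGNAA were in 9 of the 30 promoter windows matched for this list.

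Of 14 genes of eIF2alpha kinases, their phosphatases and the eIF2B exchange factor, 5 rose (35.7%) and 2 fell (14.3%), with a median of -0.04, where 29.3% of all tested genes rose and 28.2% fell. Eif2ak2, the kinase PKR, rose by a log2 fold change of 0.47, Eif2ak4, the kinase GCN2, by 0.33 and Ppp1r15a, the stress-induced phosphatase subunit, by 0.44, and Eif2b5, the catalytic eIF2B subunit, had -0.24 (edgeR adjusted p = 1.57e-06, 0.000136, 0.000262 and 0.000141). Eif2b2 and Eif2b3, other eIF2B subunits named after their values were seen, rose by 0.33 and 0.24 (edgeR adjusted p = 0.000282 and 0.00325). Eif2b1 and Eif2b4 were not called with all libraries. Eif2b5 lies on chromosome 16, whose 398 tested genes other than Yars2 had a median log2 fold change of -0.21. Eif2b2 lies on chromosome 12, whose 477 tested genes other than Wars had 0.17. Impact, an inhibitor of GCN2 activation named here after its values were seen, had -0.16 (edgeR adjusted p = 0.0361). Its call was lost without any library but GFP replicate 2, at adjusted p of 0.0865 to 0.14, which left 1 gene lower, while without GFP replicate 2 there were 4.

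Of 12 partners for editing, selenocysteine and formylation, 2 rose (16.7%) and 4 fell (33.3%), with a median of -0.06, where 29.3% of all tested genes rose and 28.2% fell. Qrsl1 and Gatc, subunits of the enzyme that makes mitochondrial glutamine tRNA by amidation, fell by log2 fold changes of -0.52 and -0.34 (edgeR adjusted p = 7.72e-05 and 0.000135). Gatb, another subunit of that enzyme, named after its values were seen, was not called (log2 fold change 0.06, edgeR adjusted p = 0.586). Dtd2, an aminoacyl-tRNA deacylase, rose by 0.34 (edgeR adjusted p = 0.00344). Prorsd1, an editing protein, had a log2 fold change of -0.35 (edgeR adjusted p = 0.0209), a call lost without TDP43-NLS replicate 1 or 2 or GFP replicate 1 or 3, at adjusted p of 0.0586 to 0.115. Dtd1, also an aminoacyl-tRNA deacylase, had 0.18, and Mtfmt, the formylase of mitochondrial initiator tRNA, had -0.18 (edgeR adjusted p = 0.0476 and 0.0276), both named after their values were seen. Dtd1 lost its call without any library but GFP replicate 1, with adjusted p up to 0.18, and Mtfmt without any TDP43-NLS library or GFP replicate 3, with adjusted p up to 0.149. Only 2 genes of the list were lower without TDP43-NLS replicate 1 or 2 or GFP replicate 3, and 1 was higher without any library but GFP replicate 1.

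Of 9 genes of cytosolic elongation and of tRNA maturation or export, 2 rose (22.2%) and 3 fell (33.3%), with a median of 0.02, shares to be read against the same 29.3% and 28.2%. Eef1d, an exchange factor subunit of elongation factor 1, had a log2 fold change of -0.36 (edgeR adjusted p = 8.75e-05), and its partner subunit Eef1g had -0.14 (edgeR adjusted p = 0.015). Eef2, the translocation factor, had 0.11 (edgeR adjusted p = 0.0188), and Trnt1, which adds the terminal CCA of tRNAs, had -0.17 (edgeR adjusted p = 0.0203). Eef2k, the kinase of Eef2, named after its values were seen, had 0.16 (edgeR adjusted p = 0.026), a call lost without TDP43-NLS replicate 1 or 2 or GFP replicate 1, with adjusted p up to 0.0989. Eef1g lost its call without any library but GFP replicate 2, with adjusted p up to 0.0771. Eef2 lost it without TDP43-NLS replicate 2 or GFP replicate 1 or 3, with adjusted p up to 0.0916, and Trnt1 without TDP43-NLS replicate 1 or 2 or GFP replicate 1, with adjusted p up to 0.114. Eef1b2, another subunit of that exchange factor, also named after its values were seen, had 0.02 (adjusted p = 0.822) with all libraries and -0.09 (adjusted p = 0.0234) without GFP replicate 2. Of 9 mitochondrial translation factors 3 fell (33.3%) and 6 were not called, with a median of -0.12, and 28.2% of all tested genes fell. The log2 fold changes were -0.54 for Mrrf, the ribosome recycling factor, -0.21 for Gfm1, an elongation factor, and -0.13 for Tufm, the elongation factor Tu (edgeR adjusted p = 2.91e-05, 0.000656 and 0.0123), the call of Tufm being lost without TDP43-NLS replicate 2 or 3 or GFP replicate 1, at adjusted p of 0.0635 to 0.0647. Without GFP replicate 2, 5 of these factors were lower.

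**Figure D5:**
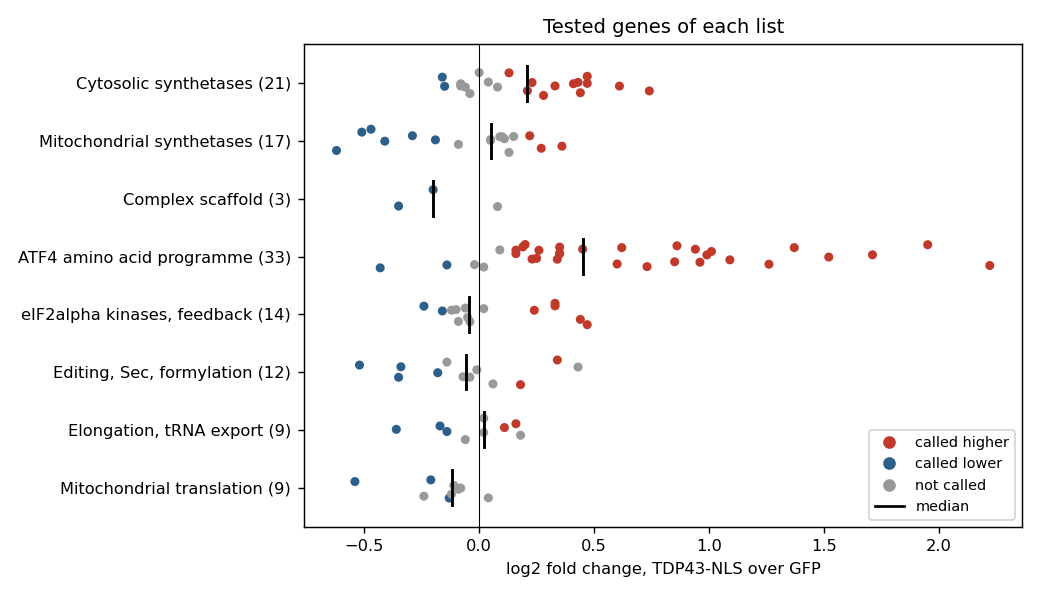
Log2 fold change (TDP43-NLS over GFP) of each tested gene in the synthetase sets and the 6 related lists, as a point coloured by call, with a black line for the median. The median is 0.21 for cytosolic and 0.05 for mitochondrial synthetases, and 0.45 for the ATF4 amino acid programme, whose points reach 2.22.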

How the data were processed

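The authors deposited raw read counts per gene and FPKM values with an annotation table, on GRCm39. The submitters' processing notes name Bowtie2 2.2.3, HISAT2 2.1.0 and HTSeq 0.6.0, without their roles. The deposited FPKM values are the counts rescaled by depth and length, not a second measurement. Strand and multiple-mapping settings are not given in the sources used here. From the counts, genes passing filterByExpr (minimum count 10, total 15) were fitted with edgeR 4.0.16 in R 4.3.3 (TMM, quasi-likelihood test, two-sided, group only), and p-values were adjusted by Benjamini-Hochberg over 13199 genes. log2 fold changes are TDP43-NLS over GFP, and a standard error is the fold change's size over the square root of F. The members and lists were chosen with earlier results of these data known. Members are named, except for results not reported here, with full statistics for those with the 8 (cytosolic) and 5 (mitochondrial) smallest adjusted p, the largest changes and the uncalled. Of each list, the fixed genes and up to 4 called ones with the smallest adjusted p are named, and some others were named after their values were seen. Alternatives used DESeq2 1.42.0, other scaling, no filter, a replicate block, a test against 0.5, limma 3.58.1 on log2(FPKM + 1) and log2(FPKM + 0.1) with a mean FPKM of at least 0.5, and each library left out. The fit was tested on data simulated with a common dispersion and 200 changed genes. It recovered 52% of genes changed 1.25-fold, 80% at 1.5-fold and 98% at 4-fold, with 7 false calls. With no gene changed it made 0 calls. The real data have far more calls and a GFP library that stands apart, so their rates may differ. Processed pseudogenes with the same annotation text, 5 in number, were left out by the rule.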

Additional observations from a re-analysis of the deposited data

How the results depend on the processing

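With DESeq2's size factors, DESeq2, no filter on low counts and both FPKM fits, the counts of cytosolic and mitochondrial genes called higher or lower stayed within 1.5 times those reported. Tested against a log2 fold change of 0.5 the counts fell by construction: 1221 tested genes were higher and 744 lower, 1 cytosolic gene was higher and 0 lower, and 14 genes of the ATF4 amino acid programme were higher. Mitochondrial synthetases then had 0 calls in either direction, as did the scaffold, eIF2alpha, editing, elongation and mitochondrial translation lists, and 0 genes of the ATF4 programme were lower. The eIF2alpha genes called lower, 2 as reported, were 1 with DESeq2, with no filter and with the replicate block, and 4 with both FPKM fits. The editing genes called higher, 2 as reported, were 1 with DESeq2's size factors, with DESeq2 and with both FPKM fits, and the elongation genes called higher, 2 as reported, were 1 with DESeq2 and 0 with both FPKM fits. The cause was not tested. The median over the genes whose name does not end in 2, 0.16 as reported, was 0.12 with DESeq2, 0.13 with no filter, 0.09 with both FPKM fits, 0.21 without members on chromosomes 9, 12 and 16 (whose other genes had medians of -0.31, 0.17 and -0.21), and 0.21 over synthetase genes only. Over all tested genes the median was 0.003 in the reported fit, -0.026 with log2(FPKM + 1) and -0.032 with log2(FPKM + 0.1). The FPKM fits thus lay lower in general, and the part of this in the set median was not tested. Leaving out each library in turn gave 3512 to 4210 tested genes higher and 3188 to 4041 lower, 10 to 13 cytosolic genes higher and 1 to 4 lower, and 3 to 4 mitochondrial genes higher and 5 to 7 lower. It gave medians of 0.13 to 0.18 for the cytosolic and -0.03 to 0.08 for the mitochondrial genes. It gave 1 to 2 ATF4 programme genes lower, 1 to 4 eIF2alpha genes lower, 1 to 2 editing genes higher and 2 to 4 lower, 0 to 2 elongation genes higher and 1 to 4 lower, and 2 to 5 mitochondrial translation factors lower. Synthetase genes that turned direction, not called in any of these fits, were Vars (0.00 with no filter and without TDP43-NLS replicate 2, 0.03 without TDP43-NLS replicate 3, 0.02 without GFP replicate 2), and Lars2 and Fars2 (-0.03 each without GFP replicate 2). Over the libraries left out in turn Vars ran from -0.03 to 0.03, Lars2 from -0.03 to 0.18 and Fars2 from -0.03 to 0.10. In the FPKM fits Kars and Eprs were called lower (adjusted p = 0.0206 and 0.0356 with a pseudocount of 1) and Tarsl2, Mars1 and 1110032A03Rik lost their calls (adjusted p = 0.0689, 0.119 and 0.0967). With DESeq2 Mars1, Aars2, Rars2, Polg2 and 1110032A03Rik lost theirs (adjusted p = 0.084, 0.0735, 0.164, 0.102 and 0.0948). The replicate numbers do not pair the samples: deviations of same-numbered libraries correlated at -0.016, -0.0112 and 0.00189. With the number as a replicate block 3848 tested genes were higher and 3679 lower, and the cytosolic and mitochondrial counts stayed at 11 higher and 3 lower, and 4 higher and 7 lower. Tarsl2, 1110032A03Rik, Fdxacb1, Aarsd1 and Gm27029 had the fewest reads.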
